A study of Homo sapiens with 6 samples.

Results

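The endoplasmic reticulum folds and checks proteins bound for the cell surface and for secretion, and 10 genes for its chaperones and folding enzymes were followed here in human embryonic stem cells. They were chosen by name: HSPA5, HSP90B1, PDIA4, PDIA3, PDIA6, SDF2L1, CALR, CANX, HYOU1 and DNAJB9. All 10 were present among the 53715 genes of the raw count table, and all 10 were among the 19156 that passed the filter on low counts. The cells were H9, an established embryonic stem cell line grown in the primed state, in which poly(A) RNA was sequenced 48 hours after transfection of an oligonucleotide tagged with fluorescein. The ASO-L1 group received an antisense oligonucleotide against LINE-1 (L1), a transposable element with many copies in the genome. The sO-L1 group received the sense oligonucleotide, and the ASO-Ctr group a non-targeting antisense oligonucleotide, each at 25 nM. Each group had 2 libraries, made from cells sorted for the tag.

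All 3 groups shared further treatment. Per the labels' protocols every culture also had trans-ISRIB (0.7 uM), an inhibitor of the integrated stress response, emricasan (5 uM), which inhibits caspases, and the ROCK inhibitor Y-27632 (10 uM) for the first 24 hours. Both mTeSR and RSeT are named as the medium, in different places of the labels. Nothing says that replicates were separate cultures, so p-values measure only the spread between these libraries, which may be technical. That spread is in part shared over all genes. In the fit used for the calls it leaves out differences tied to the replicate number. The 6 libraries held 18897936 to 67192937 counts, with the lowest total in ASO-Ctr replicate 1. The level of L1 itself was not analysed here, so the labels were not checked against their target. The 12 pluripotency genes, a check of the labelled cell type, summed to 9330.3 and 9373 CPM (counts scaled to library size) in ASO-L1. They summed to 9374 to 9770.3 in sO-L1 and 9133 to 9503 in ASO-Ctr, and none was below 69.1 CPM in any library. The sums hide opposed changes. By the rule given below, 4 of the 12 rose and 3 fell against sO-L1, with 0 called without the replicate block. Of all genes 10.3% rose and 12.7% fell. ZIC2 had 520 and 518 CPM in ASO-L1 against 435 and 441 in sO-L1. DNMT3B had 1356 and 1473 CPM in ASO-L1 against 1588 and 1701 in sO-L1. Markers of other cell types, 18 genes, summed to 198.5 to 199.4 CPM in ASO-L1, 164.5 to 182.9 in sO-L1 and 166.4 to 180.6 in ASO-Ctr. COL1A1, COL1A2 and TAGLN, connective tissue and muscle genes, held most of that sum. COL1A1 had 77.1 and 72.5 CPM in ASO-L1 cells, 45.6 and 51.1 CPM in sO-L1 cells and 42.9 and 54.1 CPM in ASO-Ctr cells. COL1A2 did not share this rise: its ASO-L1 libraries held 85.5 and 97.8 CPM, against 87.7 and 107.9 for sO-L1. FOXA2, also among the 18, was lower with ASO-L1, at 1.95 and 1.61 CPM against 3.82 and 3.84 with sO-L1. Of the 10 such markers tested, 3 rose and 1 fell against sO-L1. Without the replicate block 1 rose and 1 fell, beside 0.914% and 0.924% of all genes. None of the 18 was at 0 in every library, and SOX17, an endoderm factor, had at most 0.0729 CPM and CDX2, a trophoblast factor, at most 0.0219 CPM. The part of these markers in the results was not tested.

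In the endoplasmic reticulum, HSPA5 (BiP) is the Hsp70 chaperone and HSP90B1 (GRP94) the Hsp90 chaperone. The lectins CALR and CANX hold glycoproteins, and the protein disulfide isomerases PDIA3, PDIA4 and PDIA6 make and rearrange disulfide bonds. When unfolded proteins accumulate, the sensors ATF6, ERN1 (IRE1) and EIF2AK3 (PERK) act on these genes through the unfolded protein response: cleaved ATF6 and the spliced form of XBP1 bind ER stress elements in their promoters. EIF2AK3 acts instead through the integrated stress response and the factor ATF4.

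The ER stress element is the sequence by which many of these promoters are recognised, so its copies are shown first. Promoters are RefSeq windows of 250 bases before each annotated start of a gene, in build GRCh38.p14, written 5′ to 3′ on the gene's strand. PDIA4 and PDIA6 have 2 such windows and CANX 4, and a gene holds an element if any of its windows does. The PDIA6 element below is from window 2, and the CANX positions are from window 1. From the start of window 4 the same CANX bases lie at -189 to -171. Of the PDIA4 windows only window 1 is printed. Positions count backwards from the start, so that base -1 is the last one before it. The capitals mark the fixed bases of an element, and the bases between them are free. The ERSE was searched as CCAAT and CCACG with 9 free bases between them, and the ERSE-II as ATTGG and CCACG with 1 free base between them. The UPRE was searched as TGACGTGG and the CARE, an ATF4 site, as TGATGCAA. Both strands were searched, and only exact matches to the fixed bases were counted. Near matches were left out, so a gene may hold more such sites than are listed. Elements on the strand opposite to the gene are written in the motif's own direction.
HSPA5 ERSE, chr9:125241386-125241414 (-), bases -66 to -48, same strand as the gene: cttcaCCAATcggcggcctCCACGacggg
HSP90B1 ERSE, chr12:103930211-103930239 (+), bases -194 to -176, same strand as the gene: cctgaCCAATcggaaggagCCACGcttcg
HSP90B1 ERSE, chr12:103930316-103930344 (+), bases -89 to -71, opposite strand to the gene: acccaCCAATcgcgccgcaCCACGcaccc
PDIA6 ERSE, chr2:10812848-10812876 (-), bases -86 to -68, same strand as the gene: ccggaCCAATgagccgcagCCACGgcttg
CALR ERSE, chr19:12938379-12938407 (+), bases -225 to -207, opposite strand to the gene: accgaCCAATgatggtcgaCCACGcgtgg
CANX ERSE, chr5:179698773-179698801 (+), bases -151 to -133, same strand as the gene: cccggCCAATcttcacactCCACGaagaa
SDF2L1 ERSE-II, chr22:21642109-21642129 (+), bases -188 to -178, opposite strand to the gene: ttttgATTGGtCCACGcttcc
HYOU1 ERSE-II, chr11:119057375-119057395 (-), bases -185 to -175, opposite strand to the gene: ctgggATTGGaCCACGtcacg
HYOU1 ERSE-II, chr11:119057269-119057289 (-), bases -79 to -69, opposite strand to the gene: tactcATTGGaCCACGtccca
HYOU1 UPRE, chr11:119057381-119057398 (-), bases -188 to -181, same strand as the gene: ccccgTGACGTGGtccaa

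An ERSE lay in 5 of the 9 members with a promoter window, HSPA5, HSP90B1, PDIA6, CALR and CANX, and an ERSE-II in 2 of the 9, SDF2L1 and HYOU1. Over all 27305 genes with a window the ERSE was in 25 (0.0916%) and the ERSE-II in 18 (0.0659%), against 55.6% and 22.2% of the members with a window. The ER stress element was searched because many of these promoters are recognised by it, so these shares are a description and no test. HYOU1, the large Hsp70-like exchange factor, had 2 copies of ERSE-II and 1 UPRE, which overlaps the first ERSE-II. The UPRE was in 1 of 9 members, against 0.78% of all genes, and the CARE was in 0 of 9, against 0.967%. PDIA4 and DNAJB9 had none of the 4 elements in these windows, and PDIA3 had no window. A letter match describes the sequence and does not show that a factor binds there.

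Whole windows are given for HSPA5, HSP90B1 and HYOU1, which hold elements in different numbers, and for PDIA4, which holds none of these but carries the CCAAT letters found in all 9 members and in 37% of all genes. In HSP90B1 the second ERSE is on the opposite strand and reads as its reverse complement.
HSPA5 promoter, chr9:125241344-125241593 (-): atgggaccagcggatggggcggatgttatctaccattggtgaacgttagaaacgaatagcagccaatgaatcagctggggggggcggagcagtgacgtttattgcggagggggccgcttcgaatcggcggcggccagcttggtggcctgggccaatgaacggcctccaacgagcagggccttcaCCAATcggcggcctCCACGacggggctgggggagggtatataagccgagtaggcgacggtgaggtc
HSP90B1 promoter, chr12:103930160-103930409 (+): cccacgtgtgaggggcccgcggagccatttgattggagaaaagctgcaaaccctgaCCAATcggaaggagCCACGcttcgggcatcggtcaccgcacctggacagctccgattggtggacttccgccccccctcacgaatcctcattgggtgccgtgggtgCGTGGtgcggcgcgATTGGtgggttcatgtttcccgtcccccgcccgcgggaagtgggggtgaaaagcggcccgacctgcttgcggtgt
HYOU1 promoter, chr11:119057206-119057455 (-): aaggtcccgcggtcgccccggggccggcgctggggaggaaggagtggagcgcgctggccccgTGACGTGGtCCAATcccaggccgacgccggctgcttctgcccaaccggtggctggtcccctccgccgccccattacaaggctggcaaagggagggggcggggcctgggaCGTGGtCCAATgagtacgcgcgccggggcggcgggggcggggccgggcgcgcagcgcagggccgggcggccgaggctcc
PDIA4 promoter, chr7:149028491-149028740 (-): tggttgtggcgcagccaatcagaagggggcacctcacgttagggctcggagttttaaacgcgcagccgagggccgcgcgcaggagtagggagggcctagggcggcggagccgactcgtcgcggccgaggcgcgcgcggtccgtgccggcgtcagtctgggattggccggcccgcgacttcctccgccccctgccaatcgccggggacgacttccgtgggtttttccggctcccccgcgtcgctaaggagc

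**Figure D1:**
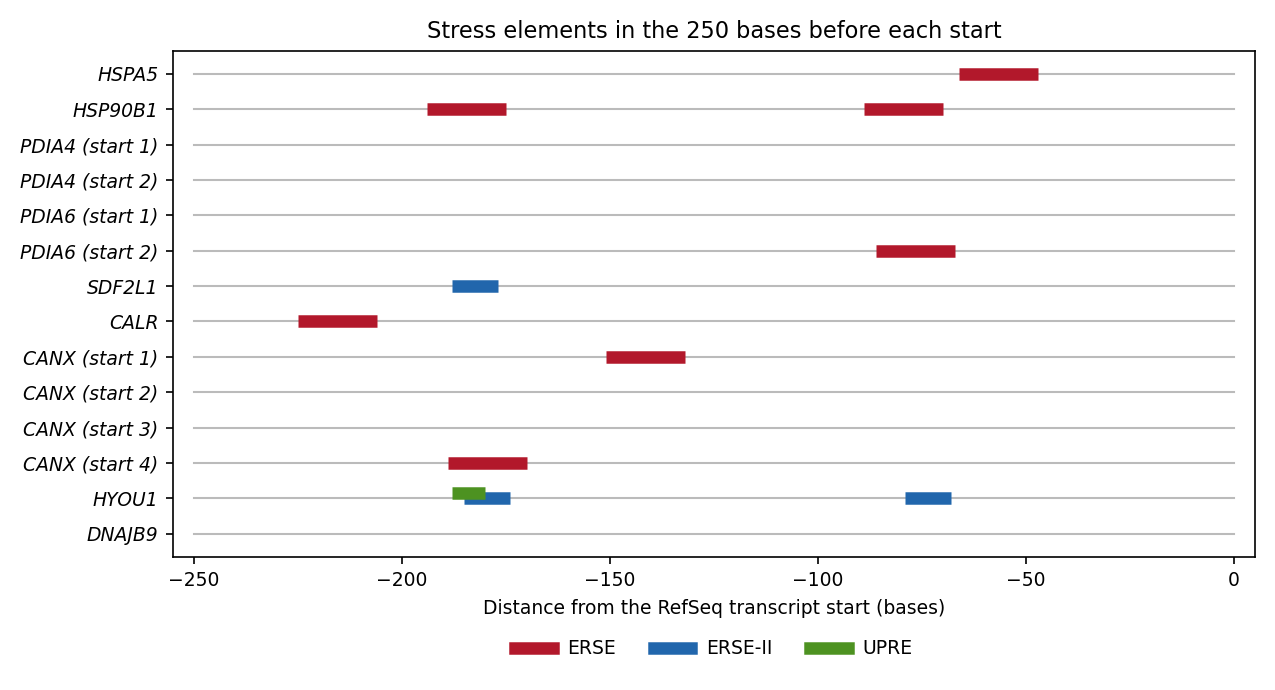
Positions of the ERSE, ERSE-II and UPRE matches in the promoter windows of the members, as distance in bases before the RefSeq start (x axis). There is 1 row per window, so that PDIA4 and PDIA6 have 2 rows and CANX 4. The same CANX ERSE appears in the rows of its starts 1 and 4. The ERSE of HSPA5 is nearest to the start at -66 to -48, and HYOU1 has the most matches.

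In ASO-L1 cells 7 of the 10 chaperone and folding enzyme transcripts fell against sO-L1 cells and none rose. The falls were of 22.2% in HSP90B1, 18.8% in PDIA4 and 14.8% in HSPA5, and smaller in CALR and PDIA3. Of all genes tested, 12.7% fell and 10.3% rose, and of the 8581 genes with an average log2 CPM of at least 4, where all members lie, 18.9% fell. The members that fell were the chaperones HSPA5 and HSP90B1, the isomerases PDIA3, PDIA4 and PDIA6, the lectin CALR and SDF2L1. The median log2 fold change of the 10 was -0.19, and that of all genes was -0.00. Without the replicate number in the fit only 1 of 10 was called, against 0.924% of all genes. In that fit 6 of 10 had an unadjusted p under 0.05, as had 3167 of the 19156 genes tested, in either direction. Fewer members were called, with the block, without ASO-L1 replicate 1, sO-L1 replicate 1 or sO-L1 replicate 2. Without ASO-L1 replicate 1 the log2 fold changes were -0.29 for HSP90B1, -0.20 for HSPA5 and -0.10 for PDIA3. They were -0.35, -0.25 and -0.13 without sO-L1 replicate 1, and -0.38, -0.21 and -0.21 without sO-L1 replicate 2. Because these are bulk libraries, fewer cells of a type and less RNA per cell cannot be told apart.

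A gene was called at an adjusted p under 0.05 (edgeR quasi-likelihood, Benjamini-Hochberg over all genes), with the replicate number as a block. Values after ± are SE for fold changes and SD for levels, and n = 2 throughout. Whether a replicate number marks a shared batch is not stated, so each call of a member is given with its adjusted p without the block as well, and for the other gene lists the number called without it is given.

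Among the chaperones, HSPA5 had 839 and 840.5 CPM in ASO-L1 cells, 990.5 and 982 CPM in sO-L1 cells and 965 and 899 CPM in ASO-Ctr cells. Both ASO-L1 libraries lay below the other 4, and the 2 ASO-L1 libraries differed little from each other. The log2 fold change of ASO-L1 against sO-L1 was -0.23 ± 0.05, adjusted p = 0.00013 and 0.136 without the block. HSP90B1 moved most of the 10, with 1188 and 1285 CPM in ASO-L1 cells, 1593 and 1585 CPM in sO-L1 cells and 1431 and 1371 CPM in ASO-Ctr cells. All 4 libraries of the other groups were above both ASO-L1 libraries, and those of sO-L1 were the highest. Its log2 fold change against sO-L1 was -0.36 ± 0.05, with adjusted p = 4.9e-08, and it was the only member still called without the block, at 0.0432.

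HSPA5 works with co-chaperones and exchange factors. HYOU1, which exchanges its nucleotide, had 345 and 349.9 CPM in ASO-L1 cells, 348 and 378 CPM in sO-L1 cells and 361 and 349 CPM in ASO-Ctr cells. The groups overlapped, and the log2 fold change against sO-L1 was -0.06 ± 0.05, with a 95% interval of -0.16 to 0.03 and adjusted p = 0.371. SDF2L1, which forms a complex with the co-chaperone DNAJB11, had 20.3 and 20.5 CPM in ASO-L1 cells, 24.8 and 23.4 CPM in sO-L1 cells and 20.7 and 20.8 CPM in ASO-Ctr cells. Both sO-L1 libraries were above the other 4, while ASO-L1 and ASO-Ctr lay close together. It fell against sO-L1 by 0.23 ± 0.07 on the log2 scale, adjusted p = 0.0105 and 0.21 without the block. That call was lost under DESeq2 and on leaving out sO-L1 replicate 1, sO-L1 replicate 2 or ASO-L1 replicate 1. DNAJB9 (ERdj4), a J-domain co-chaperone of HSPA5, had 19.7 and 18.9 CPM in ASO-L1 cells, 21.8 and 20.4 CPM in sO-L1 cells and 20.7 and 18.5 CPM in ASO-Ctr cells. Both ASO-L1 libraries lay below both sO-L1 libraries and overlapped ASO-Ctr. Its log2 fold change against sO-L1 was -0.13 ± 0.07, interval -0.27 to 0.02 and adjusted p = 0.218. SDF2L1 and DNAJB9 had the fewest counts of the 10, with 390 each in ASO-Ctr replicate 1.

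Of the lectin chaperones, CALR, which is soluble, had 675 and 679 CPM in ASO-L1 cells, 757 and 762 CPM in sO-L1 cells and 768 and 702 CPM in ASO-Ctr cells. Both ASO-L1 libraries were lowest, and the log2 fold change against sO-L1 was -0.17 ± 0.05, adjusted p = 0.00664 and 0.29 without the block. The call was lost without ASO-L1 replicate 1 or sO-L1 replicate 2. CANX, its membrane-bound counterpart, had 952.1 and 982.8 CPM in ASO-L1 cells, 983.0 and 1029 CPM in sO-L1 cells and 1006 and 973.6 CPM in ASO-Ctr cells. Both ASO-L1 libraries were below both sO-L1 libraries by a small margin, and the log2 fold change of -0.06 ± 0.05 had an interval of -0.15 to 0.04 and adjusted p = 0.421.

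PDIA3, the isomerase that works with both lectins on glycoproteins, had 561 and 568 CPM in ASO-L1 cells, 667 and 606 CPM in sO-L1 cells and 615 and 561 CPM in ASO-Ctr cells. Both ASO-L1 libraries lay below both sO-L1 libraries but overlapped ASO-Ctr. Its log2 fold change against sO-L1 was -0.17 ± 0.05, adjusted p = 0.00571 and 0.315 without the block, and it was not called without ASO-L1 replicate 1 or sO-L1 replicate 1. PDIA4 had 357 and 354 CPM in ASO-L1 cells, 444 and 432 CPM in sO-L1 cells and 436 and 409 CPM in ASO-Ctr cells, with both ASO-L1 libraries below the other 4. It fell by 0.30 ± 0.05 on the log2 scale against sO-L1, adjusted p = 1.5e-06 and 0.0643 without the block. PDIA6 had 339 and 355 CPM in ASO-L1 cells, 400.0 and 406 CPM in sO-L1 cells and 373 and 378 CPM in ASO-Ctr cells, with a log2 fold change against sO-L1 of -0.22 ± 0.05 and adjusted p = 0.00031, or 0.144 without the block. Both ASO-L1 libraries of PDIA6 were below the other 4. In this comparison 9 of the 10 members had both ASO-L1 libraries below both sO-L1 libraries, HYOU1 being the exception, and 23.4% of all genes and 25.7% of those at an average log2 CPM of at least 4 did.

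**Figure D2:**
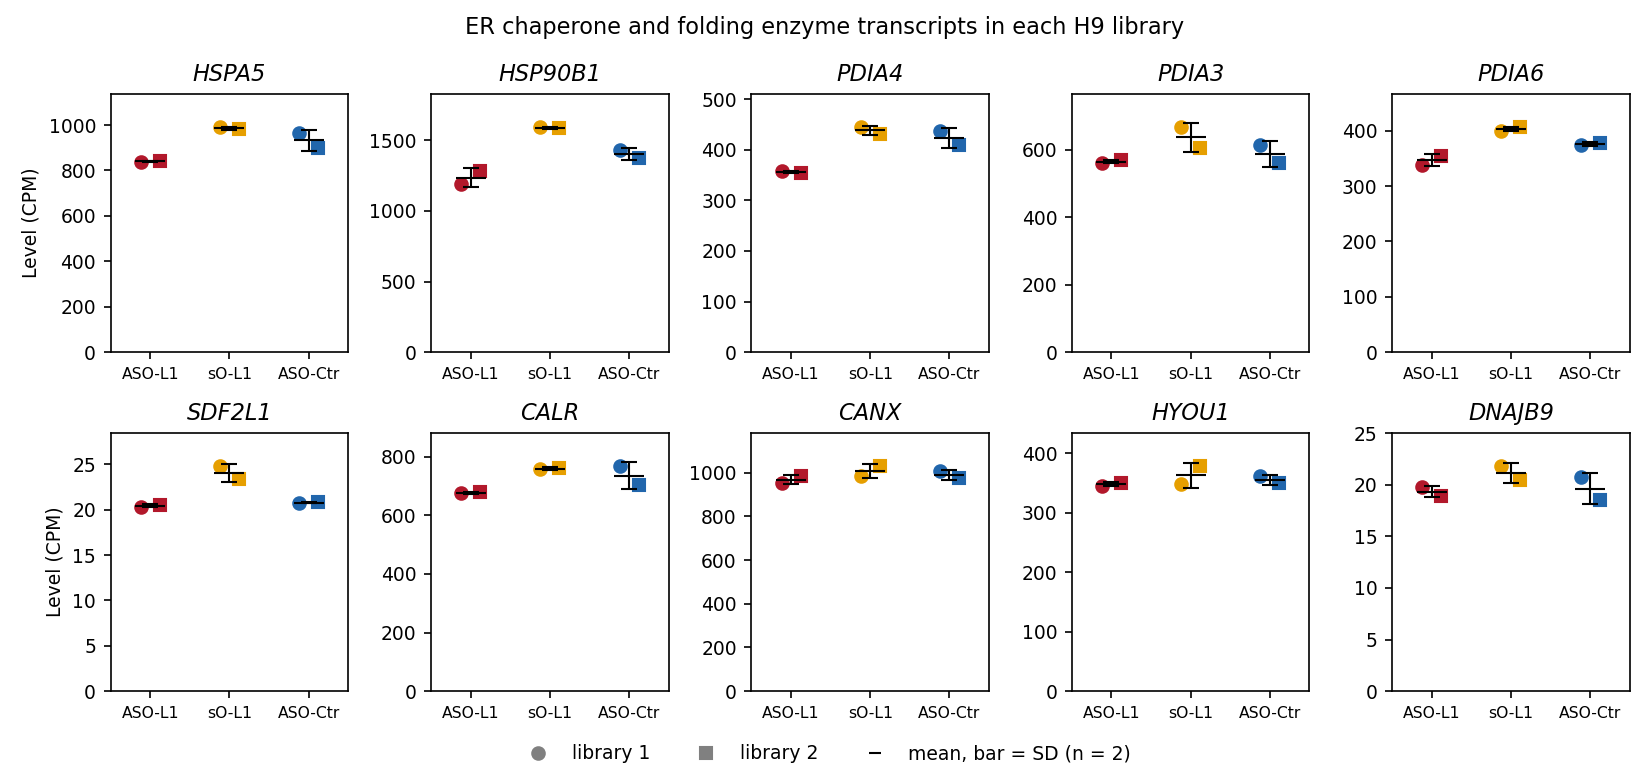
CPM of the 10 members in each library (y axis, each panel on its own scale), with ASO-L1, sO-L1 and ASO-Ctr from left to right, the group mean as a line and its SD as a bar (n = 2). The ASO-L1 libraries of HSPA5, HSP90B1 and PDIA4 sit below all 4 others, and those of HYOU1 overlap sO-L1.

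Against ASO-Ctr, 3 members fell in ASO-L1 cells and none rose: HSPA5, HSP90B1 and PDIA4. Of all genes 11.6% fell and 9.88% rose, and of genes at an average log2 CPM of at least 4, 16.6% fell. The log2 fold changes were -0.15 ± 0.05 for HSPA5 (adjusted p = 0.0139), -0.18 ± 0.05 for HSP90B1 (adjusted p = 0.00346) and -0.25 ± 0.05 for PDIA4 (adjusted p = 5.4e-05). Without the block none was called, against 1.05% of all genes, and the adjusted p were 0.321, 0.25 and 0.11. The calls for HSPA5 and HSP90B1 were also lost without ASO-L1 replicate 1 or ASO-Ctr replicate 1, the library with the fewest counts. CALR at -0.12 ± 0.05 and PDIA6 at -0.11 ± 0.05 had adjusted p of 0.0702 and 0.0683. SDF2L1 and DNAJB9 were close to 0, at -0.03 ± 0.07 and -0.01 ± 0.07. The median log2 fold change of the 10 against ASO-Ctr was -0.09, beside -0.19 against sO-L1, and that of all genes was -0.00. Both ASO-L1 libraries were below both ASO-Ctr libraries for 6 of the 10 members, for 24.8% of all genes and for 25.5% of genes at an average log2 CPM of at least 4.

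Between the control reagents, 1 member rose in sO-L1 cells against ASO-Ctr, namely HSP90B1, by 0.18 ± 0.05 on the log2 scale (adjusted p = 0.0306). It was 1 of 10 members against 0.658% of all genes called higher and 1.33% of those at an average log2 CPM of at least 4. No member was lower, against 1.06% of all genes. HSPA5, HSP90B1, PDIA6 and SDF2L1, 4 of the 10, had both sO-L1 libraries above both ASO-Ctr libraries, as had 14.5% of all genes. Without the block the adjusted p was 1, and the call was lost on leaving out any library of the 2 groups. SDF2L1 had 0.21 ± 0.07 with adjusted p = 0.151, and the median of the 10 was 0.09. All comparisons share libraries with each other, and the difference between them was not tested.

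**Figure D3:**
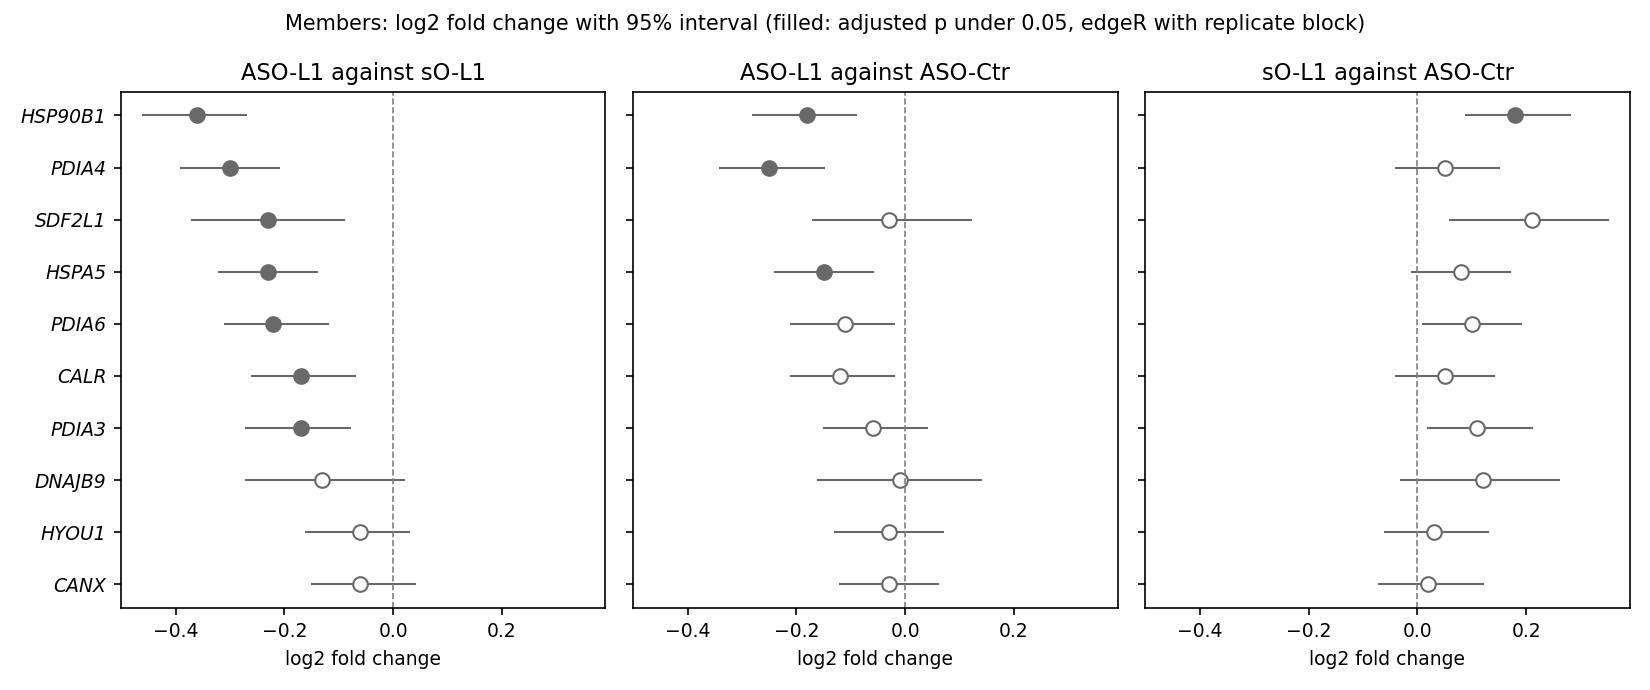
Log2 fold changes of the 10 members with 95% intervals (x axis) in the 3 comparisons, filled where adjusted p was under 0.05. HSP90B1 lies farthest below 0 in ASO-L1 against sO-L1, at -0.36, and CANX, HYOU1 and DNAJB9 have intervals that include 0 in that comparison.

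Together the members held 0.522% and 0.545% of all counts in the ASO-L1 libraries. The shares were 0.612% and 0.629% in the sO-L1 libraries and 0.598% and 0.580% in the ASO-Ctr libraries. Both ASO-L1 libraries were lowest. Corrected for length (CPM per kilobase of merged exons of GENCODE v29), the order of the levels was the same in all groups: HSP90B1, CALR, HSPA5, CANX, PDIA3, PDIA4, PDIA6, HYOU1, SDF2L1 and DNAJB9. In ASO-L1 cells HSP90B1 had 369 ± 20.3 and CALR 356 ± 1.44 CPM per kilobase, which did not differ beyond the spread. In sO-L1 cells CANX had 171 ± 5.55 and PDIA3 171 ± 11.4, which also overlapped. DNAJB9 was lowest at 7.12 ± 0.21 in ASO-L1. In sO-L1 cells HSP90B1 had 474 ± 1.63 and in ASO-Ctr cells 418 ± 12.7.

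The authors' deposited table of ASO-L1 against sO-L1 also had 7 of the 10 members lower at adjusted p under 0.05, among 2000 of its 16753 genes (11.9%). In the authors' deposited table the log2 fold changes were -0.22 for HSPA5 (adjusted p 7.9e-05), -0.35 for HSP90B1 (adjusted p 6.5e-08), -0.29 for PDIA4 (adjusted p 2.5e-06) and -0.05 for CANX (adjusted p 0.426). It rests on the same libraries and on values corrected for batch, and so is no separate evidence.

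XBP1, whose spliced form binds ER stress elements, had 120.0 and 111 CPM in ASO-L1 cells and 125 and 112 CPM in sO-L1 cells. It had 107 and 105 CPM in ASO-Ctr cells and did not pass in any comparison. Its ASO-L1 libraries lay within the range of sO-L1 or just below it, and above both ASO-Ctr libraries. Its log2 fold changes were -0.04 ± 0.05 against sO-L1 and 0.12 ± 0.05 against ASO-Ctr (adjusted p = 0.649 and 0.081). Gene counts do not show XBP1 splicing. EIF2AK3 rose against ASO-Ctr by 0.20 ± 0.06 (adjusted p = 0.0116, and 0.227 without the block) and had 0.14 ± 0.06 against sO-L1 (adjusted p = 0.0809). ATF6 had -0.09 ± 0.06 against sO-L1 and -0.16 ± 0.06 against ASO-Ctr, with adjusted p of 0.348 and 0.0604. ERN1 had only 1.97 and 2.21 CPM in ASO-L1 cells and 1.73 and 1.91 in sO-L1 cells, at 0.19 ± 0.18. Of all 9 sensors and transducers listed, 1 fell and 0 rose against sO-L1, and 1 fell and 1 rose against ASO-Ctr. None of the 9 was called without the block in either comparison. The falls are near the shares of all genes, of which 12.7% fell against sO-L1 and 11.6% against ASO-Ctr. The gene that fell was CREB3L2, a membrane-bound relative of ATF6 named after its values were seen. It fell by 0.19 ± 0.06 on the log2 scale against sO-L1 (adjusted p = 0.01, 0.411 without the block). Against ASO-Ctr it fell by 0.36 ± 0.06 (adjusted p = 4e-06, 0.125 without the block). The call against sO-L1 was lost without any 1 of the ASO-L1 and sO-L1 libraries.

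In ASO-L1 against sO-L1, 10 of 36 further folding genes of the organelle fell and 1 rose (median -0.10 on the log2 scale), while 12.7% of all genes fell and 10.3% rose. The number that fell was 3 without ASO-L1 replicate 1, 2 without sO-L1 replicate 1 and 3 without sO-L1 replicate 2. CLGN, a calnexin relative, fell by 0.37 ± 0.07, PPIB, a prolyl isomerase, by 0.24 ± 0.05 and FKBP7, another prolyl isomerase, by 0.51 ± 0.13 on the log2 scale, while ERP29 rose by 0.19 ± 0.05. Of 27 genes of translocation and glycosylation 7 fell and 1 rose. The number that fell was 4 without ASO-L1 replicate 1, 4 without ASO-L1 replicate 2 and 1 without sO-L1 replicate 1. OSTC and DAD1 of the oligosaccharyltransferase had -0.23 ± 0.05 and -0.22 ± 0.05, SPCS3 of the signal peptidase -0.20 ± 0.05 and SEC61B of the channel -0.20 ± 0.05, and each of the 4 fell. Of 22 degradation genes 3 rose and 3 fell, shares near those of all genes. None fell without ASO-L1 replicate 1 or sO-L1 replicate 1, 1 fell without sO-L1 replicate 2, and 1 rose without sO-L1 replicate 1. The genes called included AUP1 at 0.25 ± 0.05, FAF2 at 0.21 ± 0.05, HERPUD1 at 0.21 ± 0.07 and UBXN4 at -0.18 ± 0.05. None of these lists had a call without the replicate block in any comparison. Against ASO-Ctr 6 of the folding genes fell and 2 rose, 2 of the translocation genes fell and 4 rose, and of the degradation genes none fell and 4 rose, beside 11.6% of all genes lower and 9.88% higher. In sO-L1 against ASO-Ctr, 0.658% of all genes rose and 1.06% fell. There none of the folding and degradation genes was called and 2 translocation genes rose, OSTC at 0.21 ± 0.05 among them.

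The integrated stress response runs through ATF4. All 17 tested of its 18 listed genes rose in ASO-L1 against sO-L1, beside 10.3% of all genes. Their median log2 fold change was 0.96, and 13 rose without the block, beside 0.914% of all genes. Against ASO-Ctr all 17 rose as well, beside 9.88% of all genes, with a median of 1.10. Without the block 16 rose against ASO-Ctr, beside 0.903% of all genes. ATF5, a factor made under stress, had 1.93 ± 0.06, SLC7A11, the cystine importer, 1.11 ± 0.06, ASNS, asparagine synthetase, 0.96 ± 0.05 and CHAC1, which degrades glutathione, 1.30 ± 0.08. Among 20 cytosolic and mitochondrial heat shock genes 3 rose and 4 fell, beside 10.3% and 12.7% of all genes, and none was called without the block. Without ASO-L1 replicate 1, 1 rose and 2 fell, and without sO-L1 replicate 1, 2 rose and 2 fell. The log2 fold changes included HSPA9, the mitochondrial Hsp70, at 0.29 ± 0.05, HSPB1 at 0.26 ± 0.05, DNAJB1 at -0.27 ± 0.05 and AHSA1 at -0.20 ± 0.05.

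**Figure D4:**
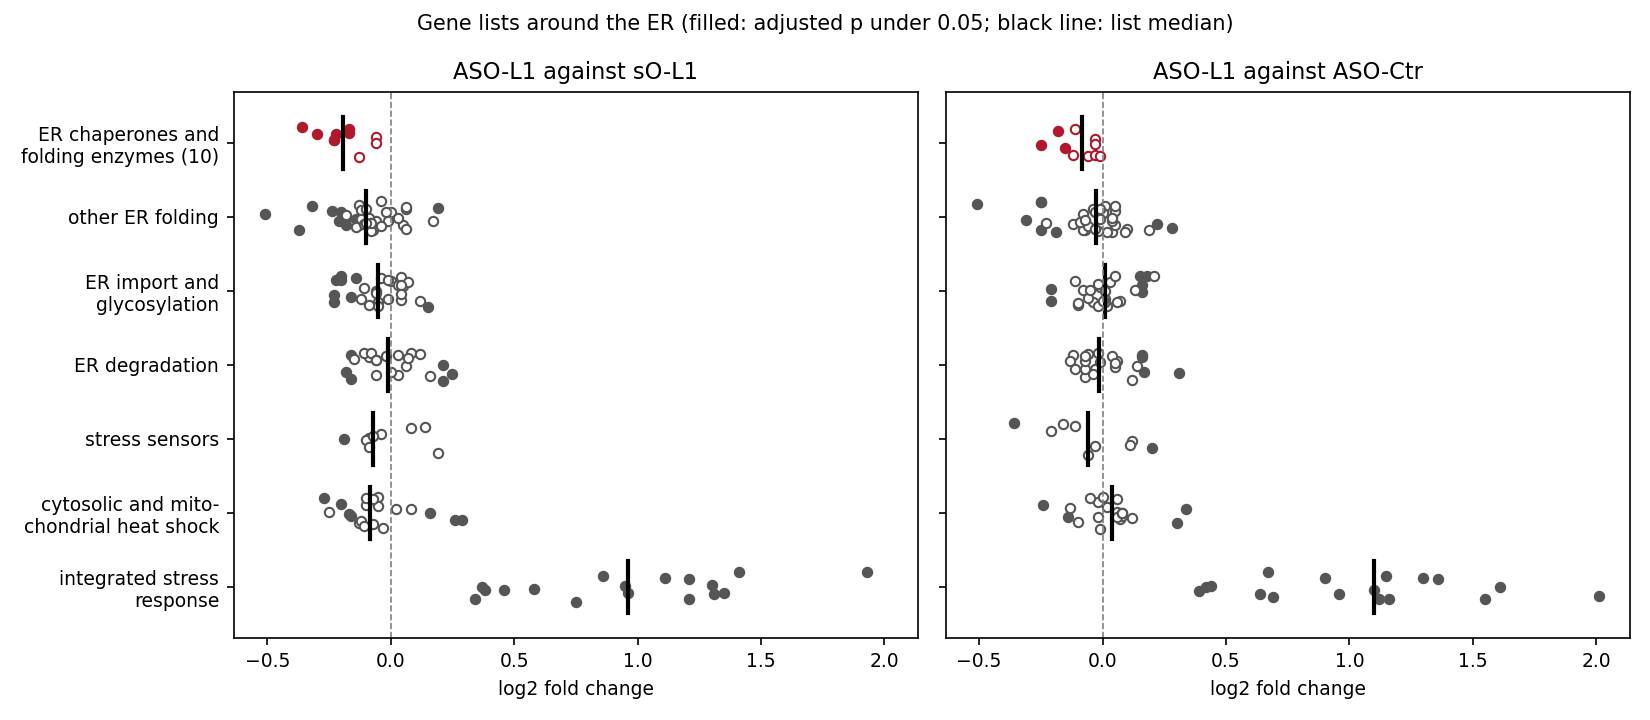
Log2 fold changes of ASO-L1 against sO-L1 and of ASO-L1 against ASO-Ctr (x axes of the panels) for every tested gene of each list (rows), 1 point per gene, filled where called, with the list's median as a line. Against sO-L1 the members have a median of -0.19 and the integrated stress response genes 0.96.

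The genes whose centred log2 CPM over the 6 libraries was closest to that of HSPA5, among 6320 with an average log2 CPM of at least 5, were MARCKS, CCNY, HMG20B, GCDH and NUDCD3, with root mean square differences of 0.0137 to 0.0234, against a median of 0.129 over the 6320. The closest member was CALR at 0.0288 and the farthest HYOU1 at 0.0822. The likeness is a description over 6 libraries.

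Some counts are uncertain. In GENCODE v29, 7 of the 10 members overlap a gene on the opposite strand, DNAJB9 with THAP5 at 29.4 to 34.5 CPM and PNPLA8 at 18.6 to 22.2 CPM, against 18.5 to 21.8 CPM for DNAJB9 itself, and the strand setting of the counting was not given in the sources used here. The pseudogene PDIA3P had 52 to 150 counts per library, against 11578 to 38502 for PDIA3.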

How the data were processed

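Poly(A) RNA of H9 cells was measured in 6 libraries, grouped by the labels into ASO-L1, sO-L1 and ASO-Ctr. The submitters' processing notes name Trim Galore 0.4.0, TopHat2 2.0.13, hg19 and featureCounts of Subread 1.5.0. The deposited table holds raw counts per gene symbol, and its name says that the authors removed duplicates. The authors' deposited log2 values carry a batch correction. The authors' deposited comparison table holds a log2 fold change and a p-value per gene for ASO-L1 against sO-L1.

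The 92 spike-in entries were left out. Genes passing filterByExpr (minimum count 10, total 15) were normalised by TMM, with factors of 0.983 to 1.02. All libraries entered 1 quasi-likelihood fit in edgeR 4.0.16 (R 4.3.3, robust estimation) with group and replicate number, which left 2 residual degrees of freedom. The replicate number was included since a batch-corrected table is among the study's outputs. SEs were derived from the F statistic. Alternatives included DESeq2 1.42.0 and limma-voom (limma 3.58.1). Members and lists were chosen with earlier results of these data known. By rule, all members, the sensors ATF6, ERN1 and EIF2AK3 and the factor XBP1 were named. So were the 4 genes with the smallest p of each other list and the 5 genes nearest HSPA5. CREB3L2, the cell type markers and the genes with promoter elements outside the members were named after their values were seen, except HERPUD1, which the rule names. Scripts were tested on simulated data. There, libraries of the same replicate number shared a shift in every group, so the simulation cannot show whether the block is right for these libraries. Promoter sequences are from RefSeq, build GRCh38.p14, and 9 of 10 members matched by symbol.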

Additional observations from a re-analysis of the deposited data

How the results depend on the processing

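The replicate block decided most calls. Replicate differences correlated at 0.278 between ASO-L1 and sO-L1, 0.191 between ASO-L1 and ASO-Ctr and 0.258 between sO-L1 and ASO-Ctr, but 2 numbers do not establish a pairing. Without the replicate block, 177 genes were lower and 175 higher in ASO-L1 against sO-L1 (2430 and 1982 with it), 201 and 173 against ASO-Ctr (2227 and 1893), and 0 and 0 in sO-L1 against ASO-Ctr (204 and 126), where 569 genes had an unadjusted p under 0.05. Members lower were then 1 and 0 in the ASO-L1 comparisons, and members higher 0 in sO-L1 against ASO-Ctr.

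DESeq2 gave 1304 lower and 1051 higher genes against sO-L1, 1290 and 1146 against ASO-Ctr, and 71 and 54 in sO-L1 against ASO-Ctr. There limma-voom gave 124 and 67, and the 4 libraries of those groups alone gave 229 higher. Under DESeq2 the members lower were 6 against sO-L1 and 3 against ASO-Ctr.

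Leaving out 1 library at a time, with a lone library assumed to vary like the other groups, gave 1029 to 2615 lower and 773 to 2087 higher genes against sO-L1, with 4 to 7 members lower and 0 higher. Fewer members were lower without ASO-L1 replicate 1, sO-L1 replicate 1 or sO-L1 replicate 2 than with all libraries. Against ASO-Ctr these were 1278 to 1987 lower and 1058 to 1706 higher, with 1 to 4 members lower and 0 higher; 1 was left without ASO-L1 replicate 1 or ASO-Ctr replicate 1. In sO-L1 against ASO-Ctr they were 7 to 279 lower and 2 to 217 higher, with 0 to 1 members higher and 0 lower.

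Signs that turned were all of uncalled values near 0, and the cause was not tested. With 1 library left out, log2 fold changes in ASO-L1 against sO-L1 ranged over -0.13 to 0.0027 for HYOU1. With 1 library left out, log2 fold changes in ASO-L1 against ASO-Ctr ranged over -0.13 to 0.02 for PDIA3, -0.06 to 0.0013 for SDF2L1, -0.08 to 0.02 for CANX, -0.09 to 0.03 for HYOU1, -0.06 to 0.02 for DNAJB9. With 1 library left out, log2 fold changes in sO-L1 against ASO-Ctr ranged over -0.02 to 0.12 for CALR, -0.03 to 0.08 for CANX, -0.03 to 0.10 for HYOU1. DNAJB9 in ASO-L1 against ASO-Ctr turned to 0.00096 with no filter on low counts and 0.04 with counts thinned to the shallowest library.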

Other observations

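Genes outside the 10 with the same elements in their promoter windows were looked up in the same fit. Of the 25 genes with an ERSE, 11 that are not members were tested. Their median log2 fold change was -0.06 in ASO-L1 against sO-L1, with 1 higher and 1 lower, and 0.12 in ASO-L1 against ASO-Ctr, with 2 higher and 1 lower. ALG12, a mannosyltransferase of N-glycan assembly, rose by 0.18 ± 0.06 on the log2 scale against sO-L1 (adjusted p = 0.0291, 0.324 without the replicate block). TRIM5, an antiviral restriction factor, fell, at -0.36 ± 0.07 against sO-L1 (adjusted p = 0.0002, 0.114 without the block) and -0.50 ± 0.07 against ASO-Ctr (adjusted p = 8.2e-07, 0.0378 without the block). CRELD2, an ER protein of disulfide exchange, had -0.13 ± 0.06 against sO-L1 (adjusted p = 0.135).

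Among 12 tested genes outside the members with an ERSE-II, 4 rose and none fell in ASO-L1 against sO-L1, and 4 rose and 1 fell against ASO-Ctr. Against sO-L1 the 4 were PLS3 at 0.30 ± 0.05, ZNF143 at 0.25 ± 0.06, HERPUD1 at 0.21 ± 0.07 and NAV2 at 0.16 ± 0.05, and none was called without the block, with adjusted p of 0.123 to 0.398. Against ASO-Ctr NAV2 had -0.00 ± 0.05 (adjusted p = 0.979), and GYS1, muscle glycogen synthase, fell, at -0.21 ± 0.06 (adjusted p = 0.00549, 0.231 without the block). The median of the 12 was 0.03 against sO-L1 and 0.01 against ASO-Ctr. Adjusted p-values are from edgeR's quasi-likelihood test over all genes, of which 12.7% were lower and 10.3% higher against sO-L1, and 11.6% lower and 9.88% higher against ASO-Ctr. Apart from HERPUD1, these genes were named after their values were seen.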
